A study of Homo sapiens with 6 samples.

Results

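The genes of the G2/M transition and the mitotic spindle were followed through 6 arrays of the human lung cancer cell line H460. Of 52 listed genes, 51 were measured, out of 18417 genes with a probe set of their own. They were chosen by name, as probe sets whose single gene symbol was on the list, and the brightest one stood for a gene. The missing member was CENPA, the centromeric histone H3 variant, whose only probe set carried several symbols and was left out. A total of 50 of the 51 genes had 1 such probe set, and BIRC5 had a second, dimmer one. The listed genes cover 10 roles, from the cyclins and kinases that start mitosis to the proteins that divide the cell.

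H460 is an established line of large cell lung carcinoma. The cells were kept for 16 h in medium with 0.5% fetal calf serum, in normoxia or in hypoxia at 1% oxygen. They received vehicle (0.1% DMSO) or BAY 87-2243, an inhibitor of the activation of hypoxia-inducible factor 1 (HIF-1) that acts on complex I of the mitochondrial respiratory chain. The conditions were normoxia with DMSO, normoxia with 100 nM, hypoxia with DMSO, hypoxia with 100 nM, and hypoxia with each of 2 lower doses, with 1 array per condition. The labels of the lower-dose arrays contradict each other. The array titled 10 nM has the source name of the 1 nM sample and the array titled 1 nM that of the 10 nM sample, so they are called by title here and no order of dose is drawn from them. With 1 array per condition there was no replicate check, no test was run, and every difference below is that between 2 arrays of a single cell line.

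The keratins KRT8, KRT18 and KRT19 of epithelial cells were bright on all 6 arrays, while EPCAM, at 63.8 to 76.7, and CDH1, at 29.8 to 45.8, lay below the median probe set at 133. Of 9 measured markers of other cell types, PTPRC, the general leukocyte antigen, lay between 15.8 and 22.6, whereas COL1A1, COL3A1, ACTA2 and CD68 were above the median probe set. Array medians ran from 127.6 to 139.8 and were highest on the hypoxia array with DMSO and on that titled 1 nM, which stood 0.11 and 0.13 log2 units above normoxia with DMSO.

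Genes of G2 and mitosis are switched on late in each cell cycle. In quiescence and G1 the DREAM complex, built on the MuvB core proteins, holds them silent through a promoter element called the cell cycle genes homology region (CHR). In late S phase and G2 the same core recruits MYBL2 and then FOXM1, and NF-Y bound to CCAAT boxes supports transcription. Their mRNA therefore marks proliferating cells. In a bulk sample, fewer cells in G2 and mitosis and less mRNA in each such cell cannot be told apart.

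Promoter windows, from 250 bases before to 50 bases after a gene's start, were available for 43 of the 51 genes (RefSeq, GRCh38.p14). The stretches shown are those of the 4 genes with the lowest values in hypoxia relative to normoxia (CENPE, SPC25, ASPM and KIF14), of HJURP, which had the highest, and of the reference genes CCNB1, CCNB2 and PLK1. Each runs 5′ to 3′ along the gene's own strand, from 120 bases before the start through the first 20 bases of the transcript. Capitals mark the CHR in the spelling TTTGAA, and the CCAAT box, each wherever its letters occur on either strand. Other spellings of the CHR were not searched, and CHR letters here means TTTGAA alone. Read on the opposite strand, TTTGAA is TTCAAA. The CCAAT box then appears as ATTGG. Minus-strand genes are CENPE (chr4:103198324-103198463), SPC25 (chr2:168890411-168890550), ASPM (chr1:197146650-197146789), KIF14 (chr1:200620732-200620871) and HJURP (chr2:233854516-233854655). Plus-strand genes are CCNB1 (chr5:69167030-69167169), CCNB2 (chr15:59105026-59105165) and PLK1 (chr16:23678769-23678908).
CENPE: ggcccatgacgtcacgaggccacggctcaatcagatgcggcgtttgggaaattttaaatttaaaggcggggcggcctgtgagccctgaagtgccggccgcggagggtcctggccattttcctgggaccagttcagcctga
SPC25: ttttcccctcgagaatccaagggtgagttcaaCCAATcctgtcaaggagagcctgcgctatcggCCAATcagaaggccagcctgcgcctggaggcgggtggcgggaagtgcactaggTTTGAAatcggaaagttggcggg
ASPM: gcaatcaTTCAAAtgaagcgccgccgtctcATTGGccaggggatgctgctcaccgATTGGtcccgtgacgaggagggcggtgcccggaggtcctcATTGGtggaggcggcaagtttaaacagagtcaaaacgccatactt
KIF14: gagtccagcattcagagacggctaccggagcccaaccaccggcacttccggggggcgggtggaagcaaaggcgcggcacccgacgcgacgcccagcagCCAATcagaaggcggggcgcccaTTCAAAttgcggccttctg
HJURP: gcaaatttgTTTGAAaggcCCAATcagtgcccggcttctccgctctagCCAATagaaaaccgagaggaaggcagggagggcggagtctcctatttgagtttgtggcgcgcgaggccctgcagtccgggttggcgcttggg
CCNB1: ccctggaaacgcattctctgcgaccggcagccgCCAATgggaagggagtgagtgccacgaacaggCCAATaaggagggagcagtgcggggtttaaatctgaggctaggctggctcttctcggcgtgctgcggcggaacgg
CCNB2: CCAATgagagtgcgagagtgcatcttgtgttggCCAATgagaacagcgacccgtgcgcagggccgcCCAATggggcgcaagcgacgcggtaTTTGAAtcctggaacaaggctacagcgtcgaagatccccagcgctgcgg
PLK1: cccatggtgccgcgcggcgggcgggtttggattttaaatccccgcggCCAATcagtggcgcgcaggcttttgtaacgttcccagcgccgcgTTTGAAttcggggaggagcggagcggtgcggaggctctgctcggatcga

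The CHR letters were present in the windows of 33 of 43 members (76.7%), of 30 of 66 other mitotic genes (45.5%) and of 15.7% of 14239 measured genes. CCAAT letters were present in 35 of 43 members (81.4%), in 44 of 66 other mitotic genes (66.7%) and in 42.2% of measured genes. Both occurred in 28 members, CHR alone in 5, CCAAT alone in 7 and neither in 3. The CHR matches lay close to the start, with 33 of 49 of the members' matches (67.3%) within 50 bases on either side of it. So did 23 of 35 matches of the other mitotic genes (65.7%), against 26.6% of the 2816 matches of all measured genes. Some genes have several overlapping windows, so that a site can be counted more than once. The cores of the hypoxia response element to which HIF-1 binds were less unevenly spread. The letters ACGTG, searched on both strands, occurred in 16 of 43 members (37.2%) against 28.9% of measured genes, and the letters GCGTG, searched likewise, in 27 members (62.8%) against 51.2%. A letter match describes a sequence and does not show that a factor binds there.

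Most of the 51 genes had their highest value in normoxia with DMSO. That array was the highest of the 6 for 33 genes (64.7%), compared with 35.2% of 7629 genes of similar mean intensity (341 to 7041, the range of the members) and 22.8% of all genes. The lowest value lay on the hypoxia array with DMSO for 21 genes (41.2%) and on the array titled 1 nM for another 21, and on the hypoxia array with 100 nM for none. Among genes of similar intensity these shares were 35.7%, 17.4% and 2.63%, near the members' for hypoxia with DMSO and with 100 nM. The spread was narrow for most. The log2 range over the 6 arrays had a median of 0.44 (0.17 to 1.47), against 0.46 for genes of similar intensity, and 35 of the 51 genes stayed within a 1.5-fold range. The 3 flattest were RACGAP1, BUB1 and TOP2A.

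**Figure D1:**
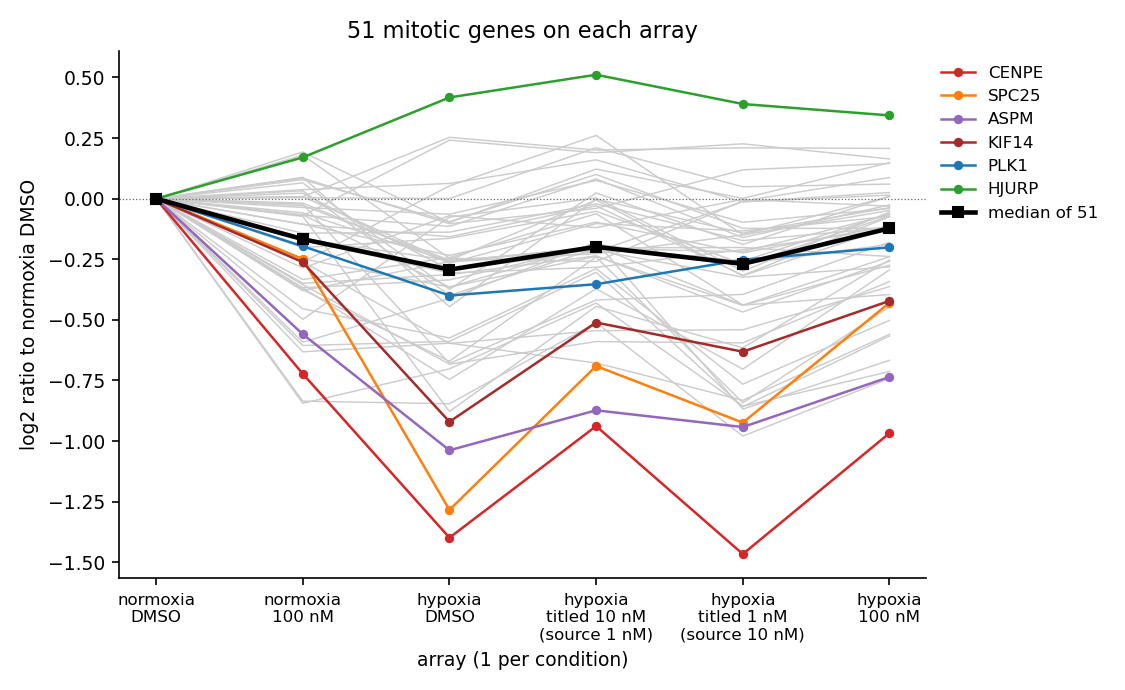
Log2 ratio to normoxia with DMSO (y axis) of the 51 genes on each of the 6 arrays (x axis, 1 array per condition). Grey lines are single genes, coloured lines the genes named in the legend, and the black line the median of the 51, which stood at -0.17, -0.29, -0.20, -0.27 and -0.12 on the arrays after the first; lines join arrays for reading and imply no time or dose order.

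In hypoxia with DMSO, 45 of the 51 genes (88.2%) were lower than in normoxia with DMSO, against 59.8% of genes of similar intensity, with a median log2 difference of -0.29 (interquartile range -0.59 to -0.13). The lowest relative values were those of the kinetochore genes CENPE and SPC25, 2.64-fold and 2.43-fold lower, and of the spindle pole gene ASPM, 2.05-fold lower, whereas HJURP was 1.34-fold higher. At least 1.5-fold lower were 14 genes, and 0 were at least 1.5-fold higher. Over all genes 11% were lower and 8.9% higher by that rule, and among genes of similar intensity 16.8% and 6.89%. By a 2-fold rule 3 of the 51 genes were lower, against 3.68% of all genes and 397 of the 7629 genes of similar intensity. The median over all genes was 0.08 and over genes of similar intensity -0.11. The shift was larger in the dimmer members: the 25 with a mean intensity of 341 to 1970 had a median of -0.57 and held 12 of the 14, while the 26 between 2029 and 7041 had a median of -0.24. With each array centred on its median probe set the members' median was -0.41, and with quantile normalization it was -0.20, with 7 genes in place of 14. The shares of other genes under quantile normalization were not counted. The range of intensity and the brightness split were chosen after the values had been seen. Other genes were not split by brightness, so the larger shift is not shown to be particular to dimmer mitotic genes.

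**Figure D2:**
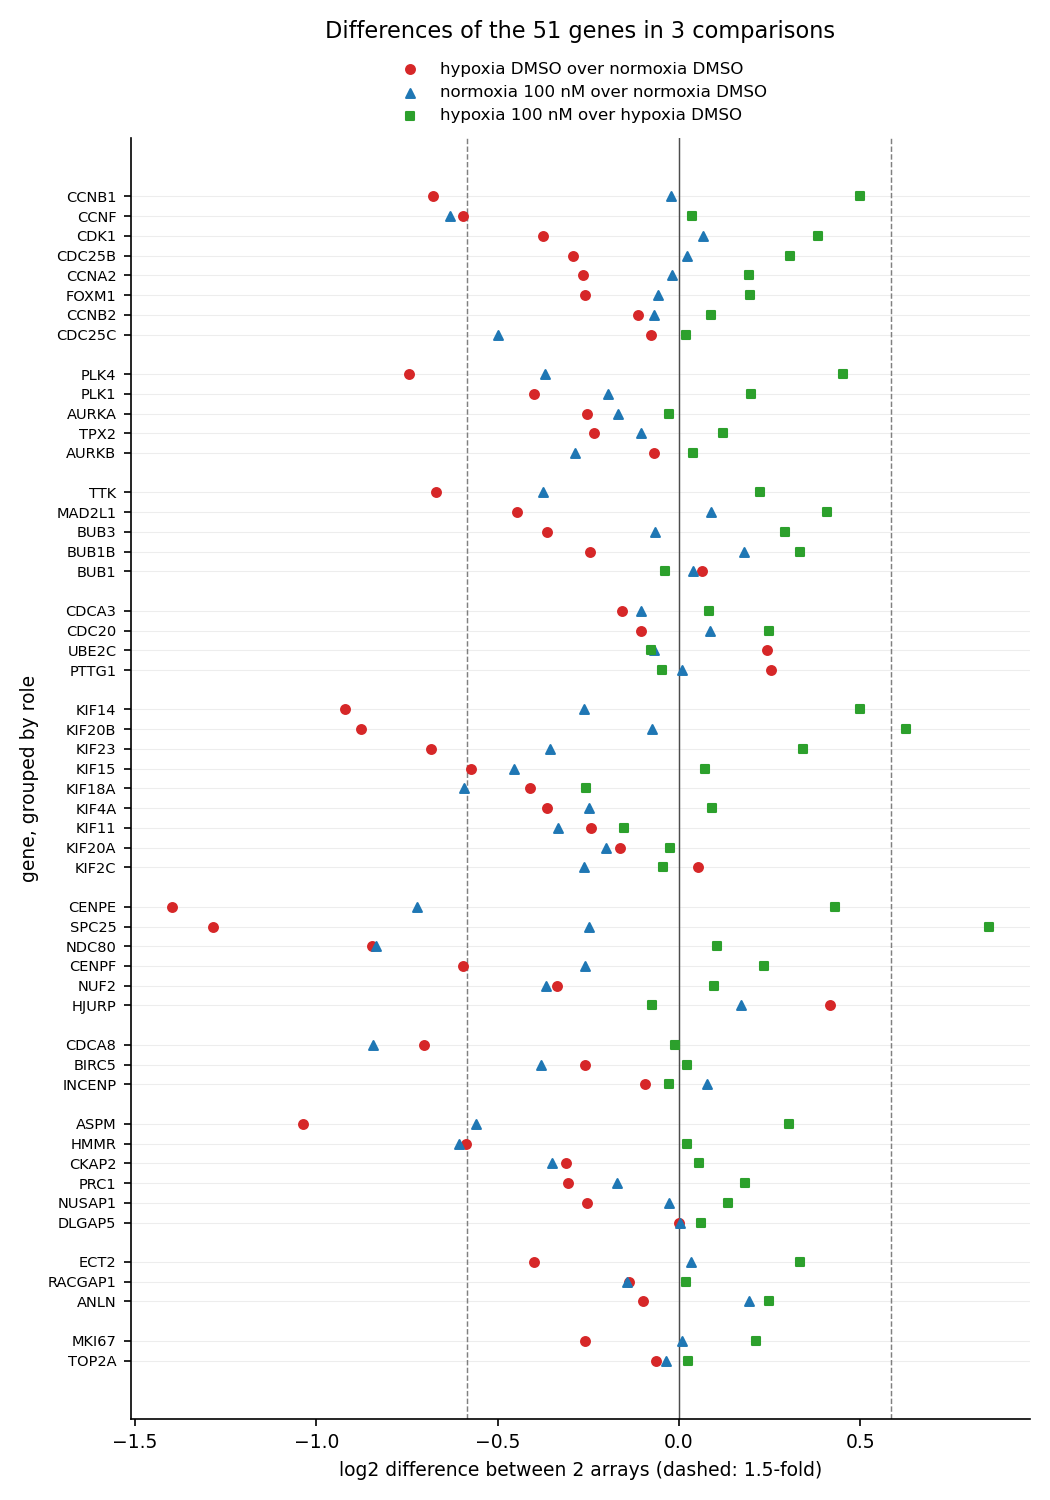
Log2 difference between 2 arrays (x axis) of each of the 51 genes (y axis, grouped by role) in 3 comparisons: red circles, hypoxia over normoxia, both with DMSO; blue triangles, 100 nM over DMSO in normoxia; green squares, 100 nM over DMSO in hypoxia. Dashed lines mark 1.5-fold; 14 red circles lie beyond the left line and 0 beyond the right, and 2 green squares, SPC25 and KIF20B, lie beyond the right.

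Intensities are given from here on in the fixed order normoxia DMSO, normoxia 100 nM, hypoxia DMSO, hypoxia titled 10 nM, hypoxia titled 1 nM and hypoxia 100 nM. The genes of mitotic entry had a median of -0.28, and 2 of 8 were at least 1.5-fold lower. CCNB1 encodes cyclin B1, the partner that activates CDK1 for entry into mitosis, and read 2067, 2035, 1290.4, 1547, 1572 and 1824. Its normoxic arrays were nearly level and its hypoxia array with DMSO was the lowest of all 6 (-0.68), with the 3 treated hypoxia arrays in between. CDK1, the kinase itself, read 2793, 2922, 2155, 2839, 2450.2 and 2812, lowest in hypoxia with DMSO (-0.37). CCNF, the F-box cyclin of an SCF ubiquitin ligase, read 490.5, 317, 324, 307, 276 and 333 and was high in normoxia with DMSO alone (-0.60 in hypoxia). CDC25C, a phosphatase that removes the inhibitory phosphates from CDK1, read 595, 421, 564, 596, 484 and 573, with its lowest value in normoxia with 100 nM. FOXM1, the transcription factor of the G2/M genes, read 2229, 2141, 1862, 1942, 1865 and 2135 and differed by -0.26. CCNA2, CCNB2 and CDC25B were -0.27, -0.11 and -0.29.

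Of the polo-like and aurora kinases with TPX2, 1 of 5 was at least 1.5-fold lower in hypoxia (median -0.25). That gene was PLK4, the kinase that starts centriole duplication, at 1112, 861, 663, 859, 683 and 907. Both normoxic arrays were above the hypoxia array with DMSO (-0.75), and the array titled 10 nM and that with 100 nM were close to treated normoxia. PLK1, which acts at centrosomes, kinetochores and the midzone, read 8245, 7196, 6251, 6457, 6924 and 7173, highest in normoxia with DMSO and lowest in hypoxia with DMSO (-0.40). AURKB, the kinase of the chromosomal passenger complex, read 2622, 2151, 2498, 2414, 2617 and 2567, and its low value was that of normoxia with 100 nM. AURKA and its activator TPX2 were -0.25 and -0.23.

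The 5 spindle checkpoint genes delay anaphase until all chromosomes are attached. Their median was -0.37, and TTK, the kinase also called MPS1, was the 1 member at least 1.5-fold lower, with 1019.8, 786, 641, 863, 569 and 748 (-0.67). Its values on the hypoxia array with DMSO and on that titled 1 nM were both below every other array. MAD2L1, which inhibits the anaphase activator CDC20, read 1509, 1604, 1108, 1507, 1367 and 1470.3 and was lowest in hypoxia with DMSO (-0.45). BUB1B, which encodes the checkpoint protein BubR1, read 2141, 2425, 1806, 1789, 2127 and 2275, so that untreated hypoxia and the array titled 10 nM lay below the others. BUB1, a kinase of the unattached kinetochore, was among the flattest genes at 3780.2, 3879, 3948, 4224, 3746 and 3847, and BUB3 was -0.37 in hypoxia.

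The role named for the anaphase-promoting complex holds its activator, its conjugating enzyme and targets, and no subunit of the complex. It had the only role median above 0, at 0.07, and none of its 4 genes was 1.5-fold apart. Subunits, counted with the further mitotic genes, were lower in hypoxia, from ANAPC4 (-0.84) to ANAPC5 (-0.20), except ANAPC11 (0.06). PTTG1, the securin that holds separase inactive until anaphase, read 1861, 1871, 2217, 2138, 2151 and 2148. UBE2C, the ubiquitin-conjugating enzyme of that complex, read 1101, 1049, 1302, 1256, 1288 and 1234. In both genes all 4 hypoxic arrays were above both normoxic ones. CDCA3, a target of the complex that promotes mitotic entry, read 610.1, 567, 547, 598, 490.0 and 579.5, with a difference of -0.16, and CDC20, the activator of the complex, was -0.10.

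The 9 kinesin motor genes had a median of -0.41, and 3 of them were lower by at least 1.5-fold. KIF14, a motor of the midbody, read 1683, 1404, 889, 1181, 1087 and 1257 (-0.92), and KIF20B, another motor of late cytokinesis, read 1081, 1028, 589, 795, 706 and 908 (-0.88). For both, the hypoxia array with DMSO was the lowest and all 4 hypoxic arrays were below both normoxic ones. KIF23, a subunit of centralspindlin, was the third, with 2717, 2125, 1693, 1806, 1799 and 2144 (-0.68). KIF18A, which limits the length of kinetochore microtubules, read 1226, 813, 922, 1082, 672 and 772, and KIF11, the motor that separates the spindle poles, read 2526, 2005, 2134, 2419.7, 1864 and 1920.3. These 2 motors, like KIF20A and KIF2C, were lower with 100 nM than with DMSO in both oxygen conditions. KIF2C, which depolymerises microtubules at centromeres, read 1018, 849, 1056, 1219, 918 and 1024 and differed by only 0.05 between the DMSO arrays. KIF15 was just inside the 1.5-fold limit at -0.57, and KIF4A and KIF20A were -0.36 and -0.16.

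Genes of the centromere and outer kinetochore had the lowest role median, -0.72, and 4 of 6 were lower by at least 1.5-fold. CENPE, a kinesin that brings chromosomes to the spindle equator, read 799, 484, 303, 417, 289 and 409. Normoxia with DMSO stood far above the rest, and the lowest values were those of untreated hypoxia and of the array titled 1 nM (-1.40). SPC25, a subunit of the NDC80 complex that grips microtubules, read 668, 562, 274, 414, 352 and 496, with a clear minimum in hypoxia with DMSO (-1.28). NDC80, the namesake of that complex, read 1100.1, 617, 612, 772, 558 and 658, and its values in hypoxia with DMSO (-0.85) and in normoxia with 100 nM were nearly alike. CENPF, a large protein of the outer kinetochore, read 2717, 2269, 1797, 1863, 1868 and 2113 (-0.60), all hypoxic arrays below both normoxic ones, and NUF2, the partner of NDC80, was -0.34. HJURP, the chaperone that deposits CENPA at centromeres, ran the other way with 4458, 5016, 5954, 6354, 5844 and 5656 (0.42), every hypoxic array above both normoxic ones.

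Among the chromosomal passenger genes, CDCA8, which encodes borealin, read 1394, 777, 857, 1034, 770.3 and 850.5. It was lower on all 5 other arrays than in normoxia with DMSO (-0.70 in hypoxia). BIRC5, survivin, read 1784, 1372, 1491, 1550.0, 1552 and 1512 (-0.26) and INCENP, the scaffold of the complex, 722, 762, 676, 773, 663 and 663 (-0.10), neither reaching 1.5-fold. Of the 6 spindle microtubule genes 2 were at least 1.5-fold lower. ASPM, which binds microtubule minus ends at the spindle poles, read 1587, 1077, 773, 866, 826 and 953 (-1.04), with both normoxic arrays above all hypoxic ones. HMMR, the hyaluronan-mediated motility receptor that also acts at spindle poles, read 1056, 694, 702, 856, 583 and 713 (-0.59), and its treated normoxic value was as low as its value in hypoxia with DMSO. CKAP2, PRC1, NUSAP1 and DLGAP5 lay between -0.31 and 0.00.

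The genes listed under cytokinesis and mitotic chromosomes were flatter, and none reached 1.5-fold. This rests on the listing, since KIF14 (-0.92), KIF20B (-0.88) and KIF23 (-0.68), which also act in cytokinesis, were counted as motors. ECT2, the exchange factor that activates RhoA at the midzone, read 2921, 2987, 2216, 2533, 2510.2 and 2791 (-0.40). ANLN, anillin of the contractile ring, read 4449, 5084, 4156, 4842, 4452 and 4932, highest in normoxia with 100 nM, and RACGAP1, the partner of KIF23 in centralspindlin, read 3026, 2742, 2749.6, 2981, 2684 and 2785. MKI67, the gene of the proliferation antigen Ki-67, read 2629, 2644, 2195, 2246, 2369.7 and 2541 (-0.26). TOP2A, the topoisomerase that disentangles sister chromatids, read 5066, 4939.7, 4846, 5337, 4734 and 4925 (-0.06), a span of 0.17 log2 units over the 6 arrays.

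**Figure D3:**
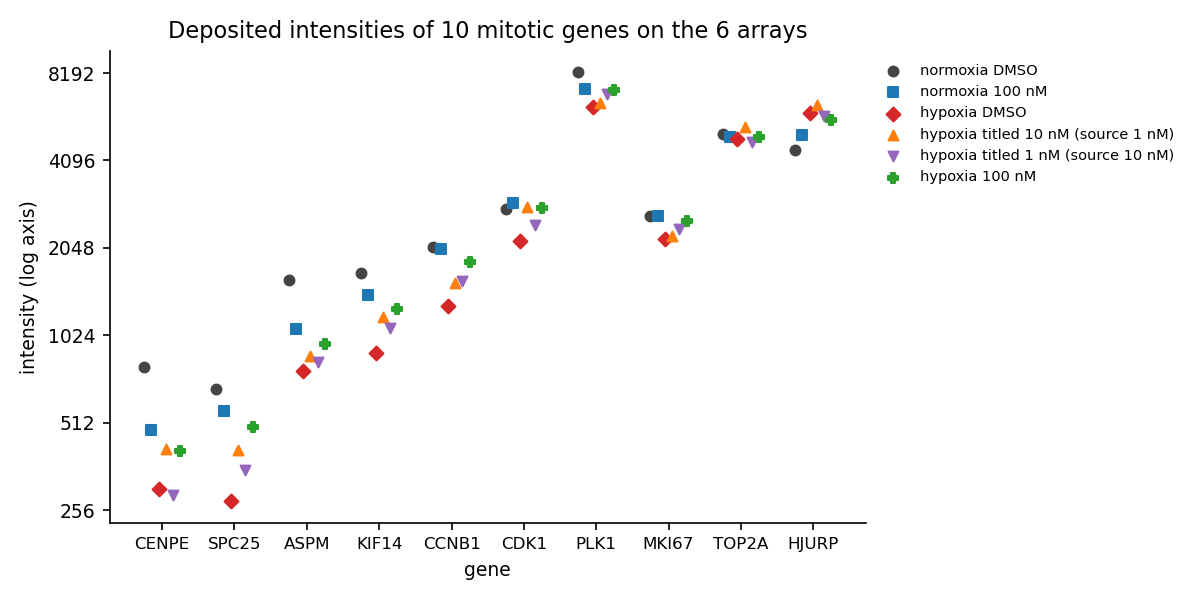
Deposited intensities (y axis, log axis) of 10 of the mitotic genes (x axis) on the 6 arrays, 1 symbol per array as in the legend. Hypoxia with DMSO (red diamonds) lies below normoxia with DMSO (dark circles) for CENPE, SPC25, ASPM, KIF14 and CCNB1, the symbols nearly coincide for TOP2A, and HJURP has its lowest value in normoxia with DMSO.

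With the promoter stretches in view, the 33 genes with CHR letters had a median of -0.37 in hypoxia relative to normoxia, with 11 at least 1.5-fold lower, and the 10 genes without had -0.21, with 2. The gap was not particular to the CHR. With the letters GCGTG the medians were -0.40 in 27 genes and -0.21 in the 16 without, with ACGTG -0.35 in 16 and -0.31 in 27, and with CCAAT -0.31 in 35 and -0.32 in 8. These are descriptions of groups of unequal size. CENPE, with the lowest relative value, and CCNB1 had no TTTGAA on either strand of the stretch shown, and HJURP, with the highest, had it. Genes without TTTGAA were not searched for other spellings of the CHR, so they are not shown to lack one.

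Treatment with 100 nM in hypoxia addressed how far the compound moved the same genes under low oxygen. Relative to hypoxia with DMSO, 40 of the 51 genes (78.4%) were higher, against 64.5% of genes of similar intensity, with a median log2 difference of 0.10 (interquartile range 0.02 to 0.30). The largest differences were those of SPC25 (0.85) and KIF20B (0.63), the 2 genes at least 1.5-fold higher, followed by CCNB1 (0.50), KIF14 (0.50) and PLK4 (0.45). The most negative were KIF18A (-0.26), KIF11 (-0.15) and UBE2C (-0.08), and 0 genes were 1.5-fold lower. Over all genes 4.97% were higher and 5.7% lower by the same rule, and among genes of similar intensity 7.47% and 3.79%. The members' median was close to the 0.0998 of genes of similar intensity, and the median of all genes was -0.04. By role the medians ran from -0.01 for the chromosomal passenger genes to 0.29 for the spindle checkpoint. The activator, enzyme and targets of the anaphase-promoting complex had 0.02. With quantile normalization the members' median was 0.0077.

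For 34 of the 45 genes that were lower in untreated hypoxia, the hypoxia array with 100 nM lay between the DMSO arrays of hypoxia and normoxia. In 5 more it was at or above normoxia with DMSO (CDK1, CDC25B, BUB1B, CDC20 and ANLN), and in 6 at or below hypoxia with DMSO (AURKA, KIF11, KIF18A, KIF20A, CDCA8 and INCENP). The shares of other genes with these patterns were not counted, so the patterns are not shown to be particular to the members. Among genes of similar intensity, 59.8% had a negative hypoxia difference and 64.5% a positive 100 nM difference in hypoxia. Both differences use the same hypoxia array with DMSO, so an error in that array moves them in opposite directions. Set against normoxia with 100 nM, which does not involve it, hypoxia with 100 nM differed by a median of -0.01. In that comparison 0 of the 51 genes were 1.5-fold apart in either direction. Few other genes were: 0.749% of all genes were lower and 0.972% higher, and of genes of similar intensity 0.0786% and 0.918%. The extremes of that comparison were CDC25C (0.44), KIF2C (0.27) and AURKB (0.25) above, and CENPE (-0.24), INCENP (-0.20) and SPC25 (-0.18) below.

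In normoxia the same dose went with lower values. Relative to normoxia with DMSO, 38 of the 51 genes (74.5%) were lower with 100 nM, against 57.4% of genes of similar intensity, with a median of -0.17 (interquartile range -0.36 to -0.01). At least 1.5-fold lower were 6 genes, CDCA8 (-0.84), NDC80 (-0.84), CENPE (-0.72), CCNF (-0.63), HMMR (-0.61) and KIF18A (-0.59), and 0 were higher. Over all genes 4.55% were lower and 1.9% higher, and among genes of similar intensity 5.62% and 2.02%, with medians of 0.01 and -0.04. All 9 kinesins and all 5 polo-like, aurora and TPX2 genes were below 0, whereas ANLN (0.19), BUB1B (0.18) and HJURP (0.17) had the highest values. With 32 added to every intensity, and likewise with quantile normalization, 3 genes in place of 6 were 1.5-fold lower. The shares of other genes under these alternatives were not counted.

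The sign of the 100 nM difference was opposite in the 2 oxygen conditions for many genes. A total of 31 of the 51 (60.8%) were lower with 100 nM in normoxia and higher in hypoxia, against 35.4% of genes of similar intensity, 9 were higher in both, 7 lower in both, and 4 had the reverse pattern (BUB1, PTTG1, HJURP and INCENP). The hypoxic difference minus the normoxic one had a median of 0.32 over the members and 0.15 over genes of similar intensity. At least 1.5-fold below normoxia with DMSO in both hypoxia with DMSO and normoxia with 100 nM were 5 genes, CCNF, CENPE, NDC80, CDCA8 and HMMR. The share of other genes lower in both was not counted. Among genes of similar intensity 16.8% were that much lower in hypoxia with DMSO and 5.62% in normoxia with 100 nM. The 2 comparisons share the normoxia array with DMSO. When hypoxia with DMSO was set against normoxia with 100 nM, the median was -0.13 and other genes passed the 1.5-fold rule. CENPE was again lower, together with SPC25, KIF20B, KIF14 and CCNB1, whereas CCNF, NDC80, CDCA8 and HMMR were level or higher. The share of other genes passing the rule was not counted there either.

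The 2 lower-dose arrays stood apart from each other. On the array titled 10 nM, 46 of the 51 genes (90.2%) were above hypoxia with DMSO, as were 73.2% of genes of similar intensity, and the medians were 0.14 and 0.08. The members were led by SPC25 (0.59), CENPE (0.46) and MAD2L1 (0.44). SPC25 alone was 1.5-fold higher and 0 were lower. Of all genes 1.06% were higher and 3.2% lower, and of genes of similar intensity 0.59% and 0.105%. On the array titled 1 nM the median was -0.02 and 0 genes were 1.5-fold apart. Of all genes 2.05% were higher and 2.55% lower, and of genes of similar intensity 2.36% and 2.77%. SPC25 (0.36) and MAD2L1 (0.30) were again among the highest there, and KIF18A (-0.46) and HMMR (-0.27) were the lowest. That array had the lowest value of the 6 for 41.2% of the members, against 17.4% of genes of similar intensity.

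Of 77 further mitotic genes, 24 (31.2%) were at least 1.5-fold lower and 0 higher in hypoxia with DMSO relative to normoxia with DMSO. Of all genes 11% were that much lower, and of genes of similar intensity 16.8%. The 24 were unevenly spread over the groups of that list. Of 25 other kinetochore genes 13 (52%) were lower (median -0.63). Of 18 genes of kinases, the anaphase-promoting complex and the lamina 7 (38.9%) were (median -0.42). Of 20 other spindle and cytokinesis genes 3 (15%) were lower (median -0.07), near the share of genes of similar intensity. Of 14 genes of cohesin, condensin and chromosome separation 1 (7.14%) was (median -0.14), below that share. SKA3, a subunit of the SKA complex that couples kinetochores to microtubules, read 1737, 1044, 582, 771, 644 and 923 (-1.58). CDC25A, the phosphatase acting at both G1/S and mitotic entry, read 624, 638, 161, 233, 369.5 and 498. It had the lowest difference of the list in hypoxia (-1.96) and the highest with 100 nM in hypoxia (1.63), and was nearly level with 100 nM in normoxia (0.03). Of the 16 measured genes of the DREAM and MYB-MuvB complexes, 3 (18.8%, near the 16.8% of genes of similar intensity) were at least 1.5-fold lower in hypoxia, RBL1, which encodes p107 (-1.15), E2F5 (-1.01) and TFDP1 (-0.63). MYBL2 was -0.21.

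Of the 43 measured genes of G1/S and replication, 20 (46.5%) were at least 1.5-fold lower and 0 higher in hypoxia (median -0.49). With 100 nM in hypoxia 9 (20.9%) were higher and 0 lower, and with 100 nM in normoxia 5 (11.6%) were lower. Among genes in the mitotic members' range of intensity, which was not matched to this list, 16.8% were lower in hypoxia. There 7.47% were higher with 100 nM in hypoxia and 5.62% lower with 100 nM in normoxia. POLE2, a subunit of DNA polymerase epsilon, read 1305, 881, 306, 502, 562 and 698, and CCND1, cyclin D1, 1369.5, 865, 643, 654, 819.6 and 838. In both, all other arrays were below normoxia with DMSO. Of the cyclin-dependent kinase inhibitors, CDKN1A, which encodes p21, read 418, 1032, 1382, 1349, 1187 and 1218, so that normoxia with DMSO was the only low array (1.72 in hypoxia, 1.30 with 100 nM in normoxia). CDKN1B, which encodes p27, read 927, 1308, 2162, 2514, 1598 and 1471, highest in untreated hypoxia and on the array titled 10 nM. CDKN3, a phosphatase of CDK1 and CDK2 that was listed with them, differed the other way (-0.79). The part of these genes in the values of the mitotic genes was not tested.

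**Figure D4:**
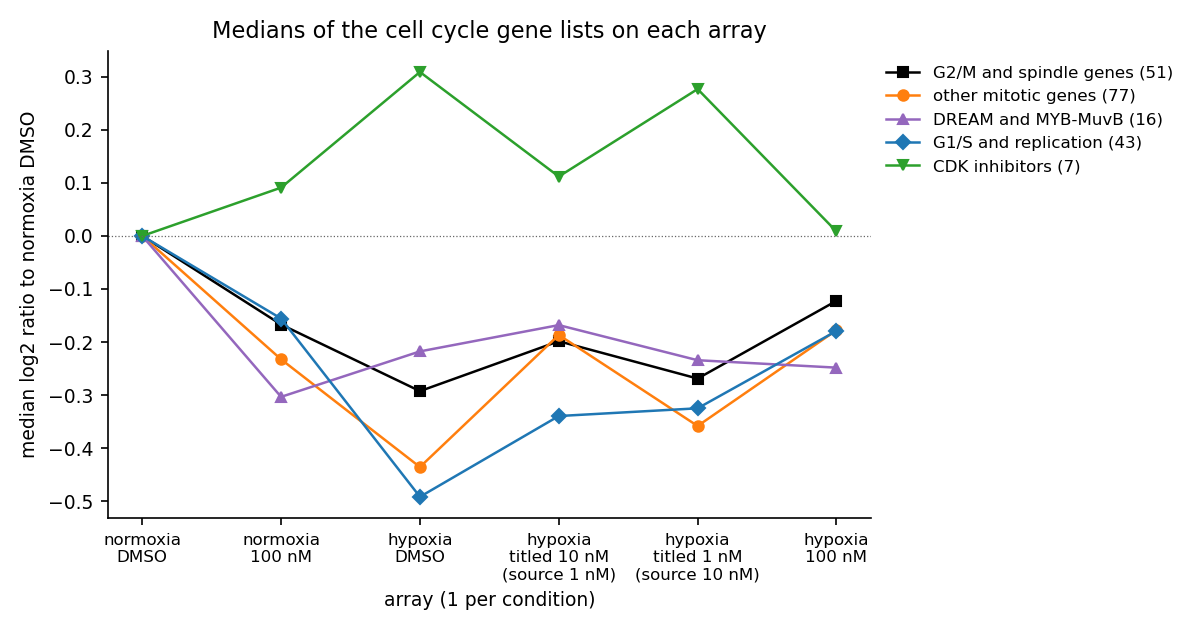
Median log2 ratio to normoxia with DMSO (y axis) of 5 gene lists on the 6 arrays (x axis, 1 array per condition; number of measured genes in parentheses). In hypoxia with DMSO the G1/S and replication genes stood at -0.49, the other mitotic genes at -0.44 and the G2/M and spindle genes at -0.29. The DREAM and MYB-MuvB genes stood at -0.22 and the cyclin-dependent kinase inhibitors at 0.31. The 0.31 is the value of CDKN2B, which lay below the median probe set. Of the 7 inhibitors 2 were at least 1.5-fold higher and 1 lower, against 8.9% and 11% of all genes. Lines join arrays for reading only.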

How the data were processed

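H460 cells were profiled on 6 Affymetrix Human Gene 1.0 ST arrays, 1 per condition. The authors deposited linear intensity values per probe set; they were background-corrected and evaluated in MAS 5.0 and Expressionist per the methods, while the submitters' processing notes name RMA. The sources used here give no genome build for the probe sets. Of 33297 probe sets, 19460 had 1 symbol in the platform annotation, 1754 several and 12083 were not named. The deposited intensity was converted to log2 without a pseudocount or filter, and each gene was represented by its single-symbol probe set with the highest mean. Differences are between 2 arrays, counts use a 1.5-fold rule (2-fold once), and medians stand beside those of all 18417 genes and of 7629 genes in the members' range of mean intensity. No test was possible with 1 array per condition, whose number limits the precision. The members, roles and other lists were chosen with earlier results of these data known. Given in full are the 2 members of each role with the widest log2 range, the 3 extremes of each of 6 comparisons, the 3 flattest members and CCNB1, CDK1, PLK1, FOXM1 and MKI67, together with KIF23 and CENPF, which were added after their values had been seen; of the other lists, genes with the largest differences, CDKN1A and CCND1, with MYBL2 added likewise. Quantile normalization, median centring, an offset of 32, all probe sets of a gene, a filter on dim genes, the mean and other arrays as reference were tried as alternatives, and the scripts were checked on simulated data. Promoter letters were searched on both strands of the RefSeq windows (GRCh38.p14); 8 members had no entry. Calculations ran in Python 3.11.15 with pandas 2.3.3, numpy 2.4.6 and scipy 1.17.1, and plots were drawn with matplotlib 3.10.9.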

Additional observations from a re-analysis of the deposited data

Results flagged for a closer look

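The median log2 difference of the 51 genes between 100 nM and DMSO was -0.167 in normoxia and 0.1044 in hypoxia, opposite in sign. The difference between these medians was not tested, since each rests on 1 array per condition.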

How the results depend on the processing

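Of 77 combinations of a result and an alternative, 58 stayed within the tolerance (for a median, the 95% binomial interval of the members' median; for a count, 1.5 times), 16 moved and 3 changed sign. For hypoxia over normoxia with DMSO, the median of -0.29 was -0.20 with quantile normalization, -0.41 with median centring, -0.1985 when the array titled 10 nM replaced hypoxia DMSO and -0.13 with normoxia 100 nM in place of normoxia DMSO, and the 14 lower genes were 7, 5 and 5 with quantile normalization and with these 2 arrays. For 100 nM over DMSO in hypoxia, the median of 0.10 was 0.0077 with quantile normalization and -0.026 with the array titled 10 nM, and the 2 higher genes were 1 and 0. In normoxia the 6 lower genes were 3 with quantile normalization and 3 with the offset of 32. For the array titled 10 nM over hypoxia DMSO, the median of 0.14 was 0.071 with quantile normalization and 0.24 with median centring. For the array titled 1 nM, the median of -0.015 was 0.0081 as a mean and -0.154 against the array titled 10 nM. For hypoxia over normoxia, both with 100 nM, the median of -0.0056 was 0.0033 as a mean and -0.122 against normoxia DMSO. The causes were not tested, and the shares of other genes under the alternatives were not counted. The filter on dim genes removed 0 members. No paired analysis was possible because each condition had 1 array, and leaving out a replicate could not be done for the same reason. All 51 members lay above the median probe set, and 12 of the 14 lower genes were among the 25 dimmer members. Other genes of that brightness were not counted.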
